A study of Mus musculus with 4 samples.

Results

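The clustered protocadherins are cell adhesion proteins encoded by 3 tandem gene clusters, alpha, beta and gamma, which lie one after another on mouse chromosome 18. The members described here were the protein-coding genes of the GENCODE annotation on that chromosome whose symbols begin with Pcdha, Pcdhb, Pcdhga, Pcdhgb or Pcdhgc followed by a number, or with Pcdhac. There were 57 of them among 21938 protein-coding genes on chromosomes 1 to 19, X and Y: 14 alpha, 22 beta and 21 gamma genes. In this annotation 2 of the alpha genes carry the symbol Pcdha11, and the first of them in genome order is called Pcdha10 here, its RefSeq name.

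Each alpha and gamma gene has its own promoter and its own large first exon, which is spliced to constant exons that all genes of the cluster share, while beta genes consist of a single coding exon. In neurons each cell uses a small and largely random choice of these promoters, a choice that depends on DNA methylation, on CTCF and cohesin bound at promoters, exons and distal enhancers, and on the repressor Smchd1. The C-type genes at the end of the alpha and gamma clusters (Pcdhac1, Pcdhac2, Pcdhgc3, Pcdhgc4 and Pcdhgc5) are used constitutively in many neurons. The proteins are best known for the self-recognition of neurites, and they are studied mainly in the nervous system.

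The assay was DNase-seq: nuclei are treated with DNase I, which digests open chromatin first, and sequencing of the ends shows where it cut. Naive resting CD8-positive alpha-beta T cells were taken from adult virgin female mice, 2 months old, of the hybrid strain B6CASTF1/J, a cross of C57BL/6J with CAST/EiJ. The 4 libraries are labelled as biological replicates 1 to 4 of 1 group, come from separate biosamples and carry 1 shared donor identifier, so the spread between them may be partly technical and there is no second condition. All libraries were mapped to mm10, the C57BL/6J sequence, and the part of CAST/EiJ variants in any value below was not tested.

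The libraries differed in how many peaks were called. The longer of each library's peak lists held 69413, 70552, 51121 and 20647 peaks in replicates 1 to 4. Peak heights are given relative to the median, in the same library, of the sites that all 4 libraries called; this relative height is the unit used throughout, and 1 is the middle of those shared sites. Of 8 T cell genes 8, 8, 8 and 4 had a promoter peak in replicates 1 to 4. Their summed relative heights were 7.67, 6.33, 5.90 and 3.44. Of all protein-coding genes 58.3%, 58.4%, 56.7% and 46.2% had a promoter peak. Promoter peaks were called at 3, 3, 2 and 2 of 3 CD8 lineage genes in replicates 1 to 4. Runx3, at 1.95, 2.02, 1.49 and 1.40, and Cd8b1 had a peak in every library. The Cd8a peak measured 0.498 and 0.366 in relative height in replicates 1 and 2. There was no Cd8a peak in replicates 3 and 4, although their label is CD8-positive. Among other genes at 0.0956 to 0.527 in replicate 1, 87.8% had a peak in replicate 3 and 34.2% in replicate 4. Of 2 helper lineage genes Cd4 had no peak in any library, and Zbtb7b had 0.251, 0.358, 0.746 and 1.12, highest in the libraries without a Cd8a peak. Of 8 B cell genes 6, 5, 7 and 5 had a promoter peak, with summed relative heights of 1.64, 1.99, 3.59 and 4.30. In replicate 4 the B cell sum lay above the T cell sum of 3.44. Of 12 neural genes 4, 3, 5 and 3 had one, with summed relative heights between 0.926 and 1.26, of which Rbfox3 and Tubb3 were called in all 4 libraries and Gfap in 3, while Snap25, Stmn2, Elavl3, Nefl, Sox10 and Olig2 were called in none. Of 6 myeloid genes 4, 4, 4 and 0 had one, summing to 0.927, 0.770, 0.852 and 0, and Adgre1 and Csf1r had none. The part of other cells in the values below was not tested, and replicates 1 and 2 alone are given beside the main counts.

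The first question was which of the 57 promoters were open. No alpha and no beta promoter had a peak in any of the 4 libraries, and all peaks at members were at gamma promoters. A promoter counted as open where a peak touched the 1 kb on either side of an annotated start. By this rule 8, 10, 8 and 1 of the 57 members were open in replicates 1 to 4, or 14.0%, 17.5%, 14.0% and 1.75%. The same rule called 58.3%, 58.4%, 56.7% and 46.2% of all protein-coding genes. The member share was below that of the other genes in all 4 libraries. The difference was −43.2 ± 1.69 percentage points (SD, n = 4), with an exact two-sided sign-flip permutation p of 0.125, which is the smallest that 4 libraries allow, and 0.153 after Benjamini-Hochberg adjustment over 11 tests. None of the 11 tests could therefore pass a threshold of 0.05.

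Between the clusters the shares were 0% for alpha and 0% for beta in every library, so these 2 clusters could not be told apart. The gamma share was 38.1%, 47.6%, 38.1% and 4.76% in replicates 1 to 4, with replicate 4 far below the others. Alpha minus gamma, and likewise beta minus gamma, was −32.1 ± 18.8 percentage points (SD, n = 4; exact sign-flip permutation p of 0.125, adjusted 0.153). In replicates 1 and 2 alone it was −42.9 points.

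Over libraries, 10 of 57 members had a promoter peak in at least 1 library, where 60.8% of all protein-coding genes did. There were 8 with a peak in at least 3 libraries, against 55.2% of all genes. A single member, Pcdhgb6, had one in all 4 libraries, against 45.8% of all genes. The remaining 47 members had none in any library. Replicates 1 and 2 alone gave 8 members with a peak in both, against 56.6% of all genes. By the authors' shorter peak lists 4 members had a peak in at least 3 libraries, against 51.7% of all genes.

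**Figure D1:**
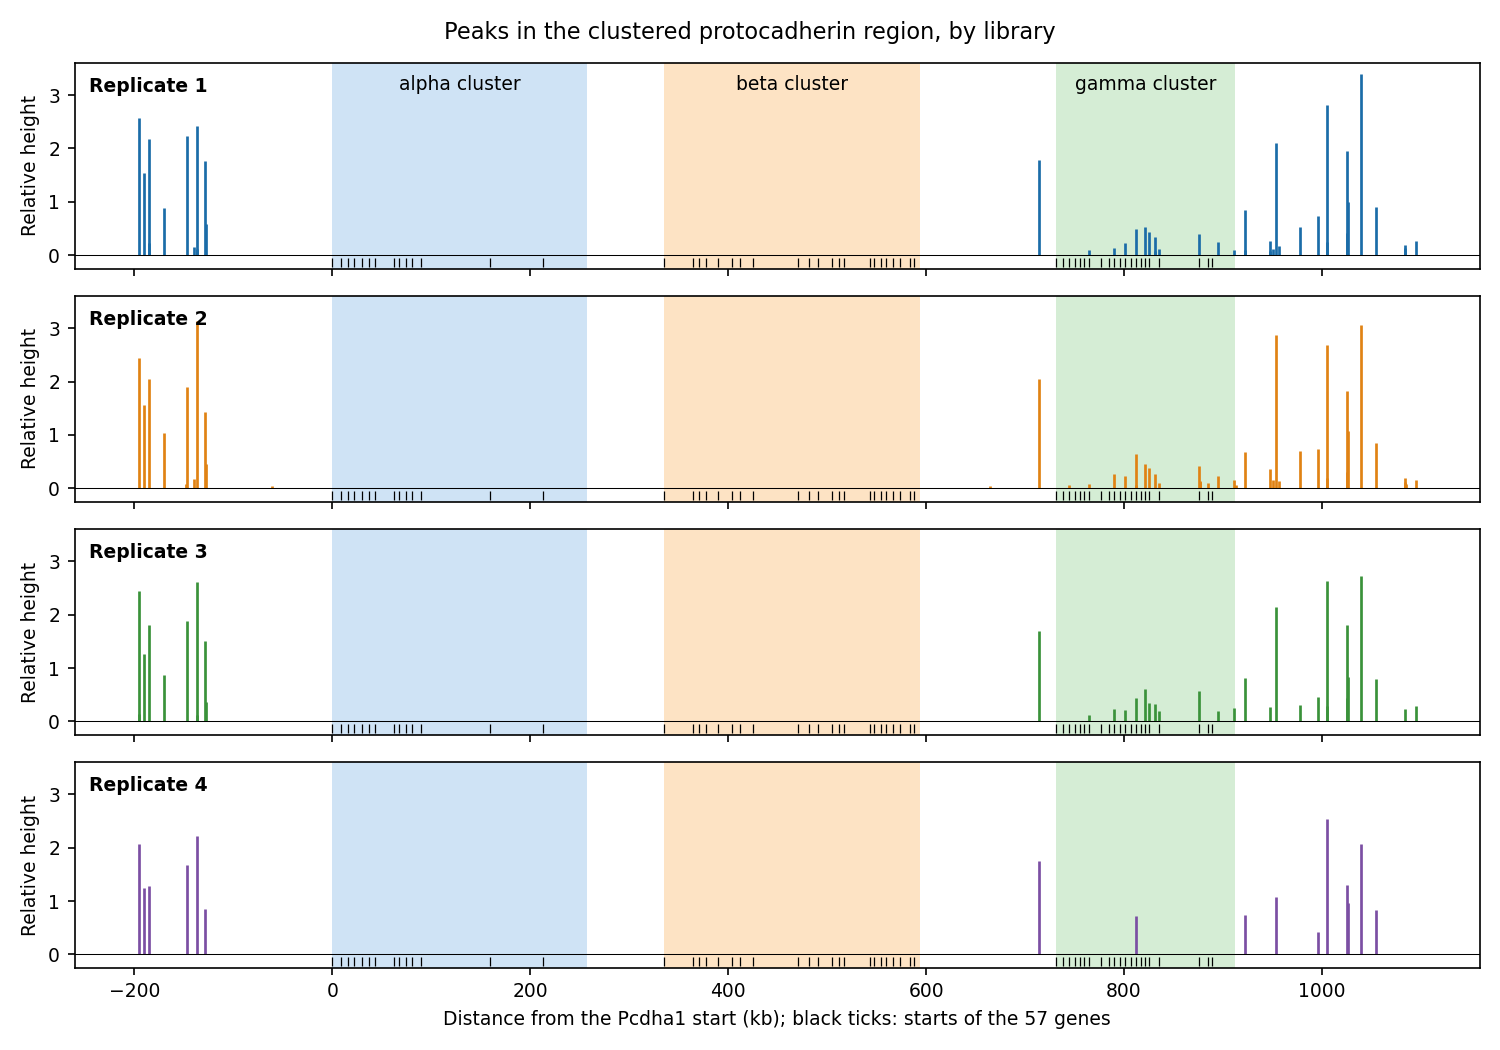
Peaks in each library over the protocadherin clusters and 200 kb on either side, as relative height (vertical axis, no unit) against distance from the Pcdha1 start in kb; shaded bands are the 3 clusters and black ticks the starts of the 57 genes. The alpha and beta bands hold no peak in any of the 4 libraries, the gamma band holds low peaks, and peaks above 1 stand in the flanks and at Taf7, between beta and gamma.

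The alpha cluster (chr18:36930184-37187661 in mm10) comprises 12 alternate genes, Pcdha1 to Pcdha12, and the C-type genes Pcdhac1 and Pcdhac2. It held no peak, no footprint (a short protected stretch within cut DNA) and 0 bases in cut-rate intervals in all 4 libraries. Cut-rate intervals are the authors' most permissive output, stretches whose cutting passed a value of 0.05. The beta cluster (chr18:37264938-37524479) held no peak and no footprint either. Its cut-rate intervals came to 1 base in replicate 1, 38.5 bp from the Pcdhb21 start, with a deposited value of 0.0453, and to 0 bases in the other libraries.

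Between alpha and beta, downstream of Pcdhac2 where an enhancer of the alpha genes is known, the 77.3 kb gap had 14 bases in cut-rate intervals in replicate 1 and 2 bases in replicate 3. Neither run lay within 28 kb of a member's start.

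The beta cluster, its flanks and the alpha cluster thus formed 1 closed stretch. The longest run without a peak that contained the Pcdha1 start was 841 kb in replicate 1, 725.8 kb in replicate 2, 840.9 kb in replicate 3 and 842.1 kb in replicate 4. In each library it held the starts of all 36 alpha and beta genes. It ended at a peak just past Zmat2 on the alpha side and at Taf7 on the beta side, except in replicate 2, where a weak peak on either side (relative height 0.0419 for the one between beta and Taf7) made it shorter. Of all runs between neighbouring peaks in the same library, 0.518%, 0.691%, 1% and 3.08% were longer (assembly gaps included), against median runs of 7.12, 7.10, 9.45 and 26.4 kb. Long closed runs are therefore not particular to these genes. Without any cut-rate interval the run over the alpha genes was 415.1, 725.8, 433.5 and 841.9 kb, and 827, 321, 1150 and 618 runs elsewhere were longer.

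The gamma cluster (chr18:37661793-37841873) was open in a part of its promoters. By type, 4 of 12 A genes, 4 of 6 B genes and 2 of 3 C genes had a peak in at least 1 library, where 60.8% of all protein-coding genes did. By position, 2 of the first 9 genes in genome order did and 8 of the last 12. This split was not planned. It starts the last 12 at Pcdhgb4, itself open, so it only describes these values. The counts for B genes, C genes and the last 12 genes are near the share of all genes. With a peak in at least 3 libraries, as 55.2% of all genes had, there were 1 of the first 9 and 7 of the last 12. The members of the last 12 without a peak were Pcdhga8, Pcdhga9, Pcdhga10 and Pcdhgc5. Spearman's rho of mean relative height was 0.47 with gene order and 0.51 with the ratio of observed to expected CpG described below. Both are over the 21 genes, which share the same 4 libraries, and are given as descriptions. That ratio was 0.6 or more in 1 of the first 9 genes and 9 of the last 12. The part of CpG content in the order was not tested.

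Pcdhgb6 had the highest mean over the 4 libraries, a missing peak counting as 0. Its promoter peak (chr18:37741921-37742120) measured 0.484, 0.644, 0.440 and 0.719 in relative height over replicates 1 to 4, a mean of 0.572 ± 0.132 (SD, n = 4), and no other member was called in replicate 4. All 4 values lie below 1, the median of the sites shared by all libraries. Its lead rests on replicate 4: without it the mean was 0.523, beside 0.528 for Pcdhgb7.

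Pcdhgb7, its B-type neighbour (chr18:37751481-37751820), had 0.527, 0.450 and 0.608 in replicates 1 to 3. Pcdhga11 (chr18:37755581-37755780) had 0.442, 0.375 and 0.340. Pcdhgc3, the C-type gene with the widest known use (chr18:37806241-37806480), had 0.398, 0.411 and 0.560. Pcdhga11 lay below Pcdhgb6 and Pcdhgb7 in each of replicates 1 to 3, whereas the order of Pcdhgb6, Pcdhgb7 and Pcdhgc3 differed between these libraries. None of the 3 had a peak in replicate 4.

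A lower group followed. Pcdhgb5 had 0.231, 0.223 and 0.213 in replicates 1 to 3, and Pcdhgb4 had 0.136, 0.261 and 0.223. Pcdhga12 had 0.116, 0.0971 and 0.199, with its peak downstream of the gene's second annotated start (37765773) rather than at its 5′ end (37765580). Pcdhga5 had 0.0956, 0.0838 and 0.124, the lowest of the 8 genes called in 3 libraries. All 4 genes lay below the 4 taller ones in each of replicates 1 to 3, and none was called in replicate 4.

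Pcdhga3, at 0.0686, and Pcdhgc4, at 0.101, were called in replicate 2 alone. The other 11 gamma members, among them Pcdhga1, Pcdhga2, Pcdhgb1, Pcdhgb2 and Pcdhgc5, had no peak in any library. Pcdhgb8, which the annotation classes as a polymorphic pseudogene and which is therefore no member, lies among the open genes and had 0.344, 0.267 and 0.320 in replicates 1 to 3.

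**Figure D2:**
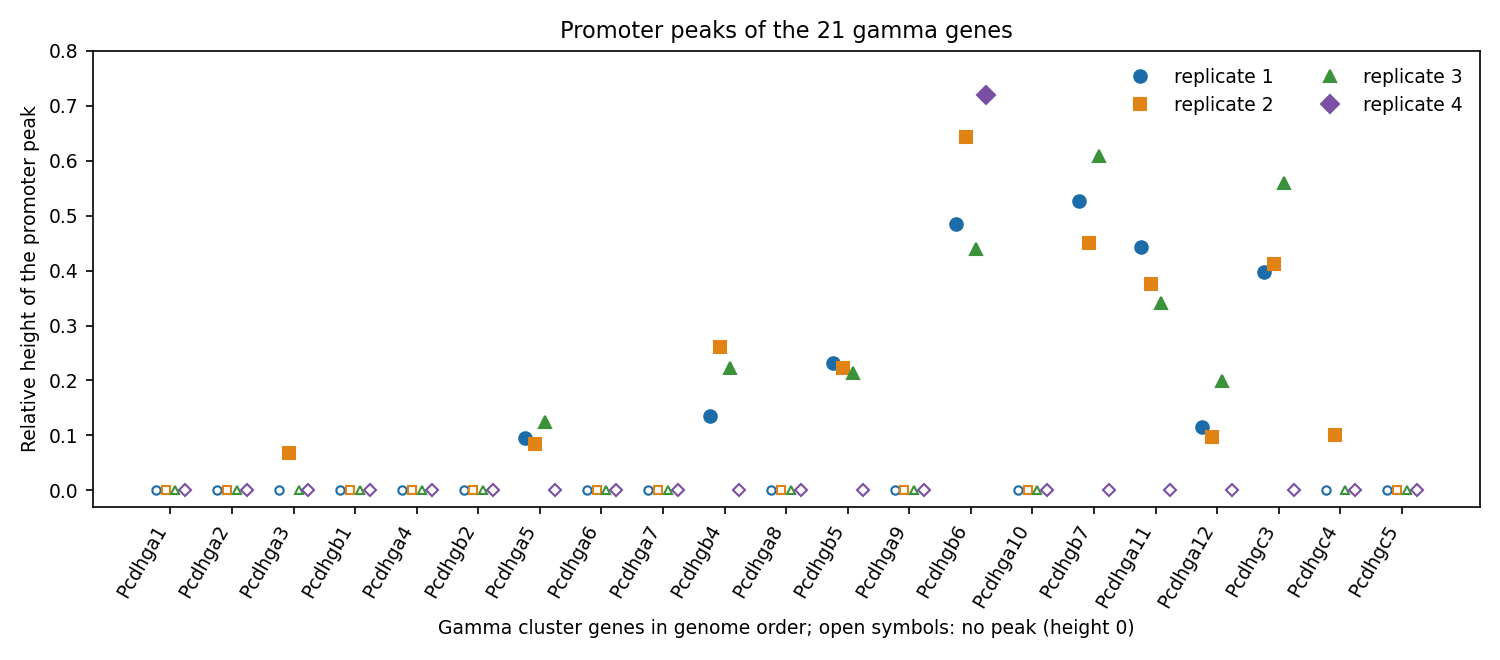
Relative height of the promoter peak (vertical axis, no unit) of the 21 gamma genes in genome order, with 1 symbol per library; open symbols at 0 mark a library without a peak. The 4 highest by mean are Pcdhgb6, Pcdhgb7, Pcdhga11 and Pcdhgc3, between 0.340 and 0.719 where called, and replicate 4 has a peak at Pcdhgb6 alone.

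These were low peaks for a promoter. Among all protein-coding promoters with a peak in the same library the median relative height was 1.18, 1.15, 1.33 and 1.56 in replicates 1 to 4, while among the called gamma promoters it was 0.314, 0.242, 0.282 and 0.719. Each called gamma value stood between percentiles 1.23 and 32.2 of all called promoters of its library, the highest being Pcdhgb6 in replicate 2. Replicate 4 also missed many other promoters of this height: of 3005 other genes whose relative height in replicate 1 lay in the range of the 8 gamma genes called in 3 libraries (0.0956 to 0.527), 94.5% had a peak in replicate 2, 87.8% in replicate 3 and 34.2% in replicate 4. The lowest peak of replicate 4 had a relative height of 0.158, against 0.0178, 0.0152 and 0.0241 in replicates 1 to 3.

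The gamma peaks sat on the starts. Over the 27 values of called promoters in the 4 libraries, the centre of the tallest peak lay at a median of −18.5 bp from the nearest annotated start, negative values being upstream (range −82 to 147.5 bp), and 24 of 27 lay within 100 bp.

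Footprints marked protected stretches at these promoters, counted here whether or not they lay inside a peak. Within 1 kb of a member's start there were 25, 26, 14 and 1 footprints in replicates 1 to 4, all at gamma genes, at 8, 8, 5 and 1 genes. Of these 66 footprints, 46 lay upstream of the start and 52 within 100 bp of it. A footprint overlapped one from another library in 44 of 66 cases. The widest recurrent one, at Pcdhgb6, spanned 37741987 to 37742029 in replicate 1 and 37741985 to 37742030 in replicate 2, was split into 37741987 to 37741999 and 37742003 to 37742030 in replicate 3, and met the single footprint of replicate 4 at 37741985 to 37741997. At Pcdhgb7 the footprint at 37751524 to 37751548 had the same ends in replicates 1, 2 and 3. At Pcdhga11 a footprint of 29 bp in replicate 1 (37755676 to 37755704) was matched by 30 bp in replicate 2 and 20 bp in replicate 3. Which protein, if any, covers these bases is not given by the assay.

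Not every gamma peak held a footprint. In all, 8 of 8 gamma peaks in replicate 1, 10 of 14 in replicate 2, 4 of 8 in replicate 3 and 1 of 1 in replicate 4 held one, against 60.7%, 58.6%, 60% and 35.8% of coding-promoter peaks in the same range of heights. The difference was not tested.

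**Figure D3:**
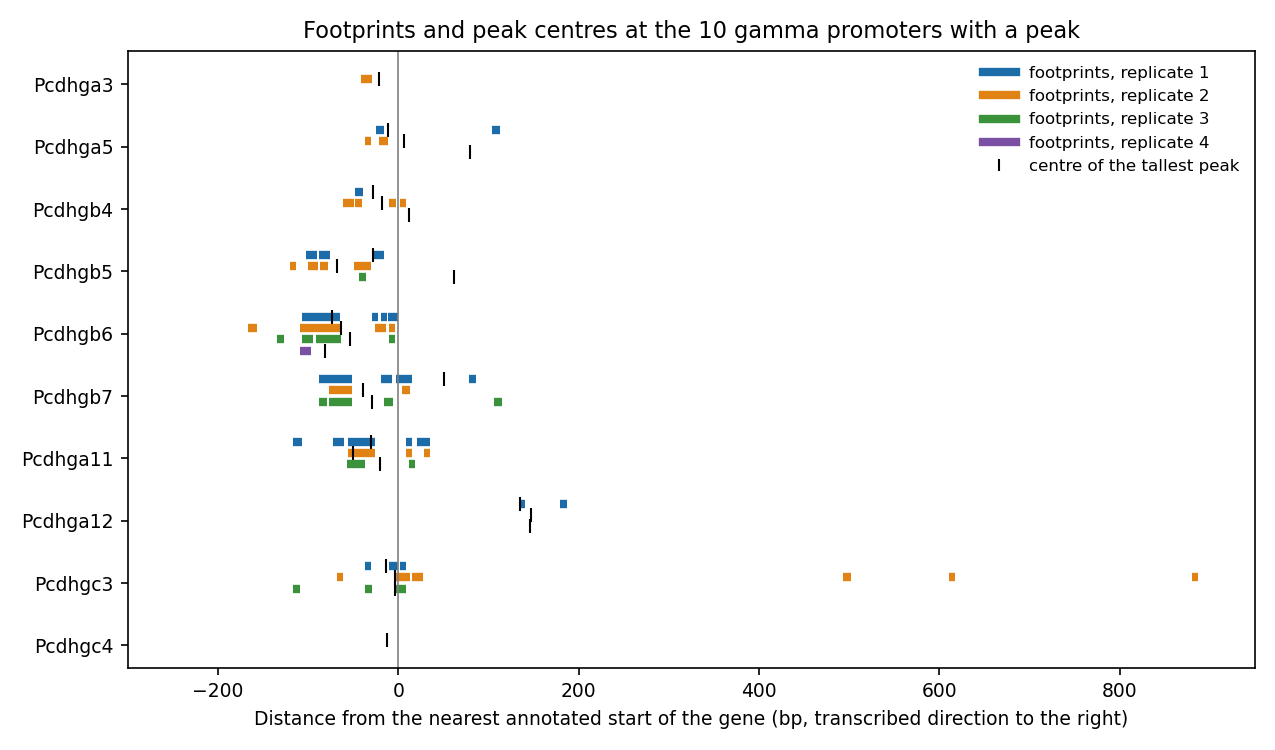
Footprints (coloured bars, 1 colour per library) and centres of the tallest promoter peak (black ticks) at the 10 gamma promoters with a peak, as distance in bp from the nearest annotated start. Most footprints, 52 of 66, lie within 100 bp of the start, and those upstream of Pcdhgb6, Pcdhgb7 and Pcdhga11 recur between libraries.

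The promoters differed in sequence content between the clusters. In the 1 kb round the 5′ end, the ratio of observed to expected CpG had a median of 0.682 in alpha (12 of 14 at 0.6 or more), 0.379 in beta (0 of 22) and 0.596 in gamma (10 of 21). Genes with a ratio of 0.6 or more are usually called CpG-rich, and CpG-rich promoters tend to be open in all tissues. Of all protein-coding genes at 0.6 or more, 90.1% had a promoter peak in at least 1 library, and of the 337 such genes with under 50% GC, as most of these members have, 80.4% did. All 12 CpG-rich alpha promoters had no peak, while 8 of the 10 CpG-rich gamma promoters had one. The CpG-rich gamma genes without a peak were Pcdhga8 (0.744) and Pcdhga10 (0.743), which lie among open neighbours. Of genes under 0.6, 35.9% had a peak. Among the members under 0.6, which include all 22 beta genes, only Pcdhga3 (0.596), in replicate 2 alone, and Pcdhga12 had one. The Pcdhga12 ratio of 0.319 was measured round its 5′ end, upstream of the peak.

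**Figure D4:**
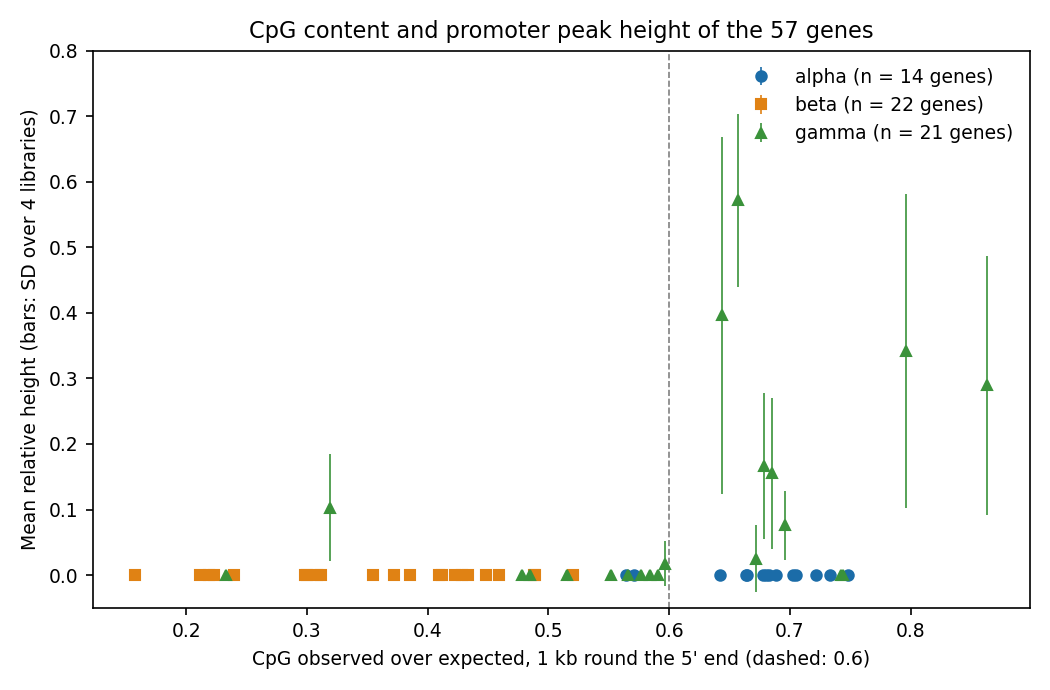
Mean relative height of the promoter peak over 4 libraries (vertical axis, no unit, bars SD, libraries without a peak as 0) against the ratio of observed to expected CpG in the 1 kb round the 5′ end, for the 57 genes. At 0.6 and above (dashed line) 8 of 10 gamma genes and 0 of 12 alpha genes have a peak.

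The genes of a cluster resemble each other, so some reads cannot be placed uniquely, and no label states how the authors placed them. The share of 32-base words in the same 1 kb that occur more than once in the genome had a median of 21.2% in alpha, 0% in beta and 1.55% in gamma. Among called promoters, Pcdhgb4, Pcdhgb5, Pcdhgb6 and Pcdhgb7 had 29.0%, 22.5%, 19.6% and 18.9%. The other called promoters had 4.74% (Pcdhga5), 1.03% (Pcdhga3) or 0% (Pcdhga11, Pcdhga12, Pcdhgc3 and Pcdhgc4). Pcdhac1, Pcdhac2 and 12 beta genes, without a peak, had 0%. At Pcdhgb4 98.6% of the repeated words occurred more than once within the clusters and their 200 kb flanks. At Pcdhgb5, Pcdhgb6 and Pcdhgb7 100% did. The part of read placement in the values of any member was not tested.

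CTCF binds clustered protocadherin DNA in neurons, so its core motif was searched on both strands as an exact match. No member's promoter (250 bases before to 50 after the start) held a match, as against 0.556% of all protein-coding promoters. With so low a share among all promoters, this does not set the members apart. CTCF sites that depart from the searched pattern would not be counted, here or in the clusters. Inside the genes there were matches: 6 in the alpha cluster, each in an exon 459 to 578 bp downstream of the start of Pcdha1, Pcdha4, Pcdha6, Pcdha7, Pcdha8 or Pcdha12, and 13 in exons of 13 beta genes. The gamma cluster held 0 matches, and the gap between alpha and beta held 1 (chr18:37217468-37217479). None of the 19 alpha and beta matches lay at a peak of any library, had a footprint or had a base of a cut-rate interval within 100 bp. The match in the gap had none of these either. These stretches held no peak and no footprint at all, so this outcome was fixed by where the matches lie. It is no separate result about the motif. Over the whole genome 47% of 12728 matches lay within 20 bp of a peak of at least 1 library, and 54.5% of the 764 matches in exons of protein-coding genes did. All 4 matches in the flanks lay at such a peak. One of them lay 8 bp beyond the edge of the tallest peak that was not at a start, in an intron of Diaph1. A match is a description of the letters and says nothing about whether CTCF is bound.

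Sites away from the promoters were few. Counting sites called in at least 3 of 4 libraries, the cluster span held 12: 11 in the gamma cluster and 1 at Taf7. None lay in the alpha cluster, the beta cluster or the gap between them. In the gamma cluster 8 of the 11 were member promoters and 1 was the Pcdhgb8 start. The other two lay at the constant exons that 22 gamma gene models share. The first (chr18:37824961-37825180), which is also close to the start of the transcript Gm38182, had 0.242, 0.230 and 0.199 in replicates 1 to 3. The second (chr18:37841381-37841580), at the 3′ end of the cluster, had 0.104, 0.154 and 0.244. Neither was called in replicate 4, and both were lower than Pcdhgb6 in each of replicates 1 to 3.

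Beyond the gamma cluster the 200 kb downstream held 14 such sites and the 200 kb upstream 8. Several of the downstream ones lay in introns of Diaph1, the formin gene that ends just past the gamma cluster. The tallest of them (chr18:37883541-37883720), 41757 bp past the end of the gamma genes, had 2.10, 2.87, 2.13 and 1.07 in replicates 1 to 4, above every promoter peak of a member in each library. One at chr18:37852201-37852420, close to an alternative Diaph1 start, had 0.847, 0.678, 0.804 and 0.737. Both were called in every library. Another at chr18:37925961-37926160 had 0.733, 0.733, 0.457 and 0.421. At chr18:37908141-37908360 the values were 0.522, 0.690 and 0.313 in replicates 1 to 3, and at chr18:37877421-37877600 they were 0.258, 0.364 and 0.275. Whether any of these sites acts on a protocadherin or on Diaph1 was not measured.

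Set against its surroundings, the cluster span (911.7 kb) had fewer peaks than the flanks: 14.3, 20.8, 13.2 and 2.19 peaks per Mb in replicates 1 to 4, against 75, 77.5, 60 and 35. The difference was −49.3 ± 12.4 peaks per Mb (SD, n = 4). The whole genome had 27.1, 27.6, 19.97 and 8.06, and the span minus the genome was −8.06 ± 3.22 peaks per Mb. For footprints the span minus the flanks was −154 ± 66.8 per Mb and the span minus the genome −20.4 ± 9.41 per Mb. Bases in cut-rate intervals made up 0.525%, 0.571%, 0.478% and 0.0767% of the span, and the differences were −2.46 ± 0.993 points from the flanks and −0.366 ± 0.141 points from the genome. The difference was negative in all 4 libraries for each of these 6 comparisons, each with an exact sign-flip permutation p of 0.125, adjusted 0.153. The remaining comparison among the 11, of the heights of sites away from any start, rested on 1 or 2 such sites in the span in each library that had any, and no result is drawn from it. Within the span the gamma cluster alone had 66.6, 94.4, 61.1 and 5.55 peaks per Mb. Its footprints came to 172, 167, 106 and 5.55 per Mb, against 66.7, 58.2, 53.9 and 10.2 over the genome. Cut-rate intervals held 2.11%, 2.27%, 1.88% and 0.0716% of its bases, against 1.06%, 0.953%, 0.831% and 0.269% over the genome. By all 3 measures the gamma cluster thus lay above the genome in replicates 1 to 3 and below it in replicate 4.

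Most genes next to the clusters were open. Of the 18 other protein-coding genes in the region, 12 were open at the promoter in each of the 4 libraries, as were 45.8% of all genes, and their mean relative heights ran from 0.845 at Arap3 to 2.81 at Fchsd1. Taf7, a subunit of the general transcription factor TFIID whose gene sits between the beta and gamma clusters, had 1.78, 2.05, 1.69 and 1.75, above Pcdhgb6 in every library. Ndufa2 and Ik, Hars and Hars2, and Hdac3 and Rell2 each shared a single peak, so the 12 genes stand for 9 peaks. Wdr55 was called in 3 libraries. The 5 genes without a peak were Dnd1, a germ-cell gene, Slc25a2 and 3 read-through models (Gm42416, Gm37013 and Gm37388) that start among the alpha genes.

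Genes of the machinery known to act on the clusters had open promoters in these cells. All 28 genes on a list of CTCF, cohesin, DNA methylation and repressor genes had a promoter peak in at least 3 libraries. In all 4 libraries 25 of them had one. For all protein-coding genes these shares were 55.2% and 45.8%. Most of the 28 are CpG-rich, with a ratio of 0.6 or more. Of all such genes 85.5% had a peak in at least 3 libraries. Ctcf had 1.69, 1.38, 2.32 and 2.30 in replicates 1 to 4. Among cohesin genes Stag1 averaged 3.59 ± 0.250 and Smc3 3.51 ± 0.448 (SD, n = 4). Next by mean on the list were Rcor1, at 3.32 ± 0.430, and Mau2, at 2.93 ± 0.491. Smchd1, the repressor that acts on the clusters, had 1.17, 1.27, 1.51 and 1.75, and Setdb1, a histone methyltransferase, had 1.26, 1.23, 1.19 and 1.18. The maintenance methyltransferase Dnmt1 averaged 2.53 ± 0.294. Rest, the repressor of neuronal genes, had 0.356, 0.278 and 0.395 in replicates 1 to 3 and none in replicate 4, as did Ehmt2 and Tet1 with heights of 0.307 to 0.498 and 0.329 to 0.347. An open promoter is not a measurement of expression.

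Of 12 genes for proteins that bind protocadherin cytoplasmic domains or act downstream of them, 11 had a promoter peak in at least 3 libraries. Of all genes 55.2% did, and of all CpG-rich genes, as most of the 12 are, 85.5% did. The tallest was Pdcd10, at 4.24, 5.61, 4.66 and 3.19. The kinase Fyn had 1.90, 1.89, 1.95 and 1.77, and Ptk2b, the kinase Pyk2, had 0.516, 0.387 and 0.560 in replicates 1 to 3. Ret, a receptor tyrosine kinase, was called in replicate 2 alone, at 0.0648.

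The non-clustered protocadherins, each a separate gene with its own promoter, were the closest relatives outside the clusters. Of 12 such genes 3 had a promoter peak in at least 3 libraries (55.2% of all genes), 0 in all 4 and 8 in none. Pcdh1, which is known from epithelia, had 0.569, 0.987 and 0.557 in replicates 1 to 3, above Pcdhgb6 in replicates 1 to 3. Pcdh7 had 0.173, 0.0895 and 0.155, and Pcdh17 had 0.104, 0.0629 and 0.186, overlapping the values of the lower gamma genes. Pcdh19 was called in replicate 1 alone, at 0.113.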

How the data were processed

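DNase-seq libraries of 4 replicates were read from the authors' deposited files, mapped to mm10 per the labels. Peak heights (column 7 of each library's longer peak list) are the authors' deposited signal values. Deposited footprints carry 1 value of 0.01 in all rows. Deposited cut-rate intervals carry a value of at most 0.0499, and their name gives it as a false discovery rate (FDR). No source used here gives the caller, its scaling or the treatment of multiply placed reads. Total peaks stand in for depth, since read totals were not used here, and peak lists hold calls only.

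Heights were divided by the library's median at the 17545 sites called in all 4 libraries, after merging peaks with at least 1 bp of overlap into 86936 sites. A promoter took the highest peak within 1 kb of any start in GENCODE release 21, or 0. The region was the cluster span with 200 kb flanks. Sequence measures came from the same build. No DNA is printed. Differences between gene groups or stretches, taken within each library, were tested over libraries by an exact two-sided sign-flip permutation, adjusted by the Benjamini-Hochberg method, and the code was tested on simulated peaks. The members and lists were chosen with earlier results of these data known. All members with a peak are named. Of the other lists a part is named, which is not always the part planned. Python 3.11.15, numpy, pandas and scipy were used. Alternatives were the shorter lists, other promoter windows, flanks, cut-rate values and library requirements, footprints inside peaks, heights as deposited and leaving out each replicate. Replicates 1 and 2 alone were added after the data were seen.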

Additional observations from a re-analysis of the deposited data

Results flagged for a closer look

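In 3 of 14 groups of 4 library values tested, 1 library stood apart from the other three by its gap to the nearest of them, where chance alone marks about 1 in 20 groups. For peaks per Mb in the cluster span minus the genome, replicate 1 stood apart, at −12.8. For footprints per Mb in the span minus the flanks, replicate 4 stood apart, at −54.2, and for the percentage of bases in cut-rate intervals in the span minus the flanks it stood apart at −0.980. The last pair goes with the library that has the fewest peaks, 20647, and footprints, 26149. All of these values have the sign of the other libraries.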

How the results depend on the processing

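No difference changed its sign under any alternative, and the 0 counts of alpha and beta promoter sites were 0 under all of them. The span minus the flanks shrank with flanks of 100 kb in place of 200 kb. It was then −29.9 instead of −49.3 peaks per Mb and −83.1 instead of −154 footprints per Mb. For bases in cut-rate intervals it was −1.19 instead of −2.46 points. Counts moved with how many libraries had to agree. With the shorter peak lists, sites at gamma promoters numbered 4 instead of 8, sites inside the cluster span 6 instead of 12, members called 4 instead of 8 and non-clustered protocadherins called 1 instead of 3; the mean relative height of Pcdhga5 and Pcdhga12 was then 0 and that of Pcdhgb6 0.294. With all 4 libraries needed these counts were 1, 2, 1 and 0, and distal sites in the region numbered 3 instead of 9. Leaving out replicate 1, 2 or 3 forces a call in replicate 4, and gave gamma promoter sites from 1 to 8, sites in the span from 2 to 12, members called from 1 to 8, distal sites from 3 to 9 and non-clustered protocadherins from 0 to 3; the higher value is that without replicate 4. The difference between members and other genes ran from −43.9 to −42.7 points. No paired analysis was possible because all 4 libraries form 1 group and no second group exists to pair them with; the tests already use differences within a library. No test could reach 0.05, so sides of that threshold say nothing about stability. Replicate 4 had the fewest peaks and called 34.2% of other promoters at gamma heights; read depth was not used here, and its part was not tested.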
